A study of Mus musculus with 17 samples.

Results

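The 36 genes described here are effector genes of the type I interferon response, the antiviral and regulatory genes that cells switch on after interferon alpha or interferon beta binds its receptor. They were chosen by gene name from a fixed list, made with earlier results of these data known, and are 36 of the 54532 genes counted. Their RNA was measured by bulk RNA sequencing of mouse cells in 17 samples and 6 groups. Tumor CD45 cells, leukocytes carrying the surface protein CD45, came as 3 EV and 3 Vkine samples, and the labels name tumor in the sample type but bone marrow as the source. MutuDC, a mouse conventional dendritic cell line, came as 2 EV samples, 3 Vkine samples, 3 EV + LPS samples and 3 Vkine + LPS samples. Vkine stands for versikine, a proteolytic fragment of the matrix proteoglycan versican, and EV is its control. LPS is bacterial lipopolysaccharide, which activates dendritic cells through Toll-like receptor 4. The sources used here state neither the route of Vkine nor how much LPS was used or for how long. They also leave unstated whether samples of a group came from different animals or cultures. EV tumor CD45 replicates 1 and 3 are titled EV_R1_CD45 and EV_R1L1_CD45, and whether the shared R1 marks related samples is not stated. A p-value here therefore covers only the spread between the samples, which may be technical.

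Type I interferons bind the receptor IFNAR1-IFNAR2, whose kinases JAK1 and TYK2 phosphorylate STAT proteins. With IRF9 these form a complex that binds an interferon-stimulated response element, a DNA motif in the promoters of many effector genes. The effectors degrade or block viral RNA, restrict viral release, sense nucleic acids and tag proteins with the ubiquitin-like protein ISG15, and dendritic cells are known both to make type I interferon and to respond to it.

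Promoter sequence was examined because so many of the 36 genes moved together in MutuDC. A high share with the interferon-stimulated response element can follow from the choice of interferon effectors alone, whatever happened in MutuDC. RefSeq promoter windows on GRCm38.p6, from 250 bases before to 50 bases after the gene start, matched 26 of the 36 genes in 31 windows. The core of the interferon-stimulated response element, searched on both strands as 2 copies of GAAA with any 2 bases between them, lay in 13 of these 26 genes (50%), against 1079 of 27025 genes (3.99%) with a window in the same table. The STAT motif TTCNNNGAA lay in 6 of the 26 (23.1%) against 9.55% of genes, and it overlapped a response element match only in Bst2 among the 26. A match is a stretch of letters and not a binding site, and no match says only that these letters are not in the window. The 7 windows below belong to members of 6 roles that hold the motif, and they are shown 5′ to 3′ on the gene's strand with the matches, on either strand, in capitals.
Ifit3: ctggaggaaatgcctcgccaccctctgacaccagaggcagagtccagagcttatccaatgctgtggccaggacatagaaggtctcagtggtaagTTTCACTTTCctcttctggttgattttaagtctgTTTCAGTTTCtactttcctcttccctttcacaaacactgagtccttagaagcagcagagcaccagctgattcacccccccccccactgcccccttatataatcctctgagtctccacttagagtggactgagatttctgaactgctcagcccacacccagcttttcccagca
Ifit3b: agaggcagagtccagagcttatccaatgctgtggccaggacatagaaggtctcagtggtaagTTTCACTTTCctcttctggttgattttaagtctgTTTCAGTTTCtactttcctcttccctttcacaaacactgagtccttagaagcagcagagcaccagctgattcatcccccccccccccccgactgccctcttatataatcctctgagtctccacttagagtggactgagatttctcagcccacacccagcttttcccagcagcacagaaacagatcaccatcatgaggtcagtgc
Isg15: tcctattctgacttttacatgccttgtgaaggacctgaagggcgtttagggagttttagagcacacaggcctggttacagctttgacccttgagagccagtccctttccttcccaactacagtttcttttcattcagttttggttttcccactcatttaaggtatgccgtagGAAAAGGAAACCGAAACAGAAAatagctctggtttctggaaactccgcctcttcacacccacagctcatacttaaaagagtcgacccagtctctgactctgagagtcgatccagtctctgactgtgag
Oas1a: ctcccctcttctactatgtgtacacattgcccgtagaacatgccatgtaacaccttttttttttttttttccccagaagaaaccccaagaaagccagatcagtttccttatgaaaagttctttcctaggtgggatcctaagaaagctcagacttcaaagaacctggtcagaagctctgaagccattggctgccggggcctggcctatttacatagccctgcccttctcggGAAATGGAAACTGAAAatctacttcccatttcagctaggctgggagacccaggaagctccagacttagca
Ifih1: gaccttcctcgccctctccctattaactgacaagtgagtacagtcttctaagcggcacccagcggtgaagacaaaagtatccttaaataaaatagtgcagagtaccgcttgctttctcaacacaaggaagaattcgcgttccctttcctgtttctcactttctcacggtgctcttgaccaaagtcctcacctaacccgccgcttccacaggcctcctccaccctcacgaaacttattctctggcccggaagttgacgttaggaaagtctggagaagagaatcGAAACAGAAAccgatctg
Bst2: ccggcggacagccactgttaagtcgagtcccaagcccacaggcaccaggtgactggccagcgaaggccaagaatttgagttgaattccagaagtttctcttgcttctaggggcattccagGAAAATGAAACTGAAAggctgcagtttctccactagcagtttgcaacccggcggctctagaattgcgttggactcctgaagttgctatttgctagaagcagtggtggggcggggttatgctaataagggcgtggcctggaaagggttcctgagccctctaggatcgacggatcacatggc
Trim30a: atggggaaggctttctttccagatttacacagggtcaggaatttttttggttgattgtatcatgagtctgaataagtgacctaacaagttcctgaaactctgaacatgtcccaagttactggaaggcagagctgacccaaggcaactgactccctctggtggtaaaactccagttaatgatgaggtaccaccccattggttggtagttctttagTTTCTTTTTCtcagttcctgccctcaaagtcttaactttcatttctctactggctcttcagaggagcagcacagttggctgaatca
The Isg15 window (chr4:156200769-156201068, minus strand) holds a run of overlapping matches that begin 78, 72 and 66 bases before the start. The Ifit3 window (chr19:34583279-34583578, plus strand) holds a pair of matches that begin 156 and 122 bases before the start, and the Ifit3b window (chr19:34607707-34608006, plus strand) a pair at 188 and 154 bases. In the Oas1a window (chr5:120907476-120907775, minus strand) the overlapping matches begin 20 and 14 bases before the start, and in the Bst2 window (chr8:71537423-71537722, minus strand) 130 and 124 bases before it. The Trim30a window (chr7:104465144-104465443, minus strand) has 1 match, 36 bases before the start, and the Ifih1 window (chr2:62646206-62646505, minus strand) has its match 32 bases after the start. Of the 13 genes without a match, Oasl1 was called lower with Vkine alone in MutuDC, and Cmpk2, Ifi35 and Ifi44 were not called. The others, Ifit2, Xaf1, Isg20, Sp100, Oasl2, Herc6, Trim25, Dtx3l and Samd9l, were called higher. Of the 13 genes with a match, Rsad2, Ddx58 and Oas1g were not called with Vkine alone, and the others were called higher. The bases after the RefSeq start were found in an annotated transcript for 27 of the 31 windows, but not for those of Bst2 and Ifit3b, whose starts differ between annotations.

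Total counts ran from 13814620 to 21263321 reads per sample, and all 36 genes passed the filter on low counts in both cell sets. The labelled identities matched their markers for MutuDC: summed CPM (counts scaled to library size with edgeR's TMM factors) of 11 conventional dendritic cell markers ran from 9420 to 13800, with Xcr1 at 278 to 441. Vkine alone had the lowest of these sums, 9420 to 9560, whereas the EV samples had 12100 to 12400. Of the 11 markers, 8 were called lower with Vkine alone and 1 higher. The T cell receptor genes Cd3d, Cd3e, Cd3g, Trac and Trbc2 and the neutrophil genes S100a8, S100a9 and Ly6g were at 0 in MutuDC. Other genes of the 11 on the T cell list were not at 0. With Vkine alone this list summed to 57.5 to 62.3 CPM, below the 66.9 to 72.9 of EV. Its highest MutuDC sums, 127 to 139 CPM, came with Vkine and LPS together. The neutrophil list of MutuDC (6 of 12 genes at 0) summed to 2010 to 2050 CPM in EV and 3180 to 3610 in Vkine, carried by Mmp9. Plasmacytoid dendritic cell markers summed to 16.1 to 16.2 CPM in EV and 32.3 to 34.1 in Vkine. Macrophage markers summed to 163 to 173 and 78.8 to 89.3 CPM, carried by Csf1r, while 4 of the 6 tested were called higher with Vkine and 2, Csf1r and Apoe, lower. The part of these markers in the results was not tested. Leukocyte markers summed to 4880 to 5670 CPM in tumor CD45, and macrophage markers were the most abundant of the cell type lists there (8300 to 13600 CPM). Vkine tumor CD45 replicate 1 stood apart with 10.6% mitochondrial counts against 2.47% to 5.56% in the other tumor CD45 samples. EV tumor CD45 replicate 2 had the lowest level of 33 of the 36 effector genes among the 6 samples. In bulk samples, fewer cells of a type and less RNA per cell cannot be told apart.

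In MutuDC without LPS, Vkine raised most of the effector genes. By edgeR's quasi-likelihood test with Benjamini-Hochberg adjustment at 0.05, 28 of the 36 were higher, 1 was lower and 7 were not called, against 16.9% of 13357 genes tested called higher and 18.3% called lower. The median log2 fold change of the 36 was 1.21, against 0.01 over all genes. LPS alone raised 34 of 36 and lowered 0 (17.2% higher and 17.6% lower among all genes), with a median of 2.29. In cells that had Vkine, LPS raised 32 and lowered 0 (27.6% and 24.3% among all genes), with a median of 1.14. Once LPS was present, Vkine made less difference to the list as a whole: 7 genes were higher, 6 lower and 23 not called (22.8% higher and 19.2% lower among all genes), with a median of 0.03. With upper-quartile scaling that split was 6 higher and 8 lower, and the median was -0.02. The comparisons share samples, so their counts are not independent of each other. EV has 2 samples, so a fit without one of them rests on a single EV sample, which is assumed to vary like the other groups.

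**Figure D1:**
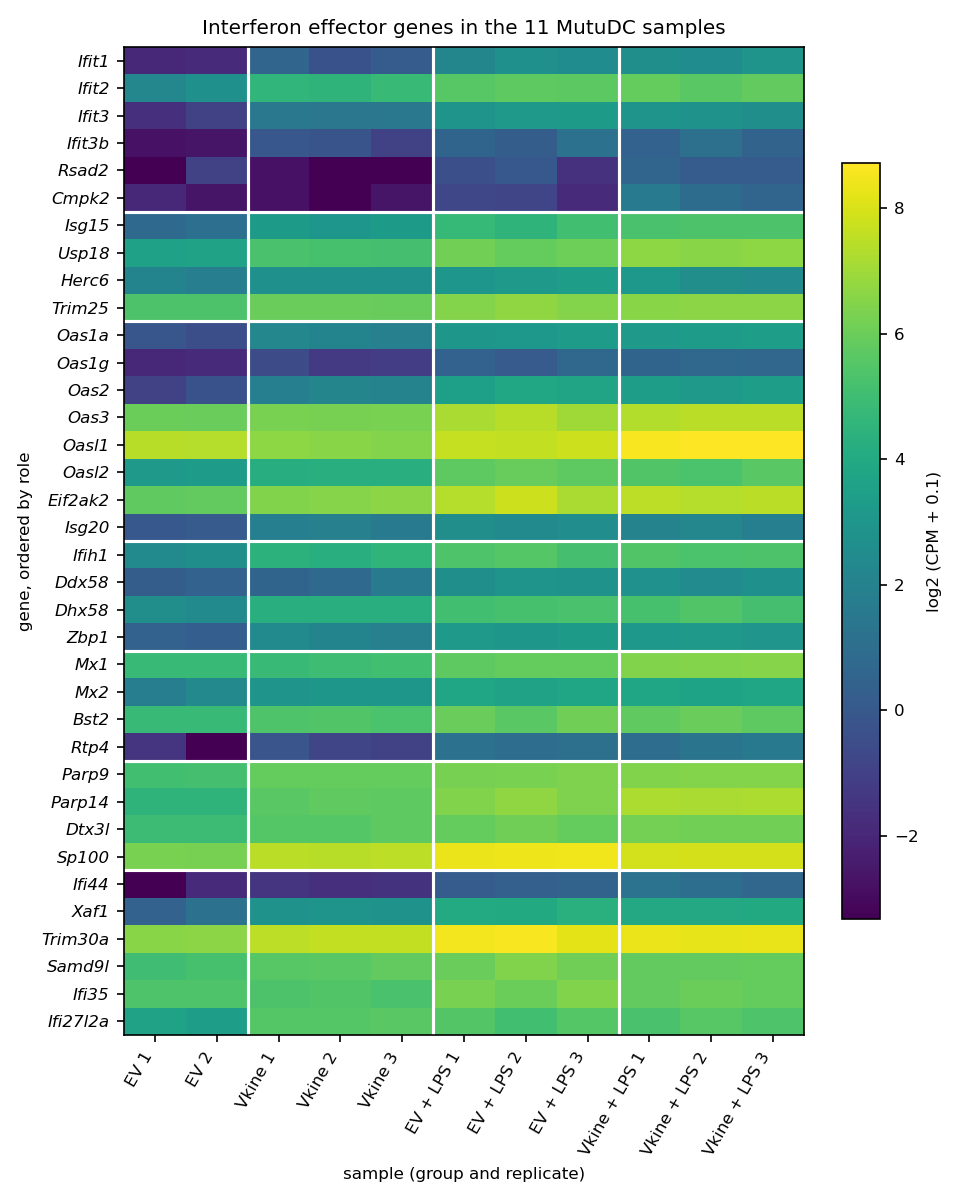
Level of each of the 36 effector genes (rows, grouped by role between white lines) in each of the 11 MutuDC samples (columns, by group), as log2 of CPM plus 0.1, with brighter colors for higher levels. Most rows brighten from EV to Vkine and again to the LPS groups, while Oasl1 is darkest in the Vkine group. Rsad2 and Cmpk2 are among the dark rows and are least dark in Vkine + LPS.

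The summed level of the 36 genes was 789.1 and 797.1 CPM in EV, 1228, 1235 and 1267 in Vkine, 2198, 2349 and 2186 in EV + LPS, and 2423, 2441 and 2468 in Vkine + LPS. The 4 groups did not overlap in this sum, which the most abundant members dominate. By mean CPM, 17 genes followed the order EV, Vkine, EV + LPS, Vkine + LPS from lowest to highest (3.41% of genes tested), and in 14 genes the LPS groups changed places (3.72%). Every EV + LPS sample was above every Vkine sample in 35 of the 36 genes, and below in 1, Ifi27l2a. Among the 13357 genes tested, 22.4% were above and 20.2% below in that way. Every Vkine + LPS sample was above every EV sample in all 36 (27.1% of genes tested).

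The IFIT proteins bind viral RNA that lacks the host's cap modifications and block its translation. Ifit1 (ENSMUSG00000034459) stood at 0.155 and 0.177 CPM in EV, 1.41, 0.728 and 1.02 in Vkine, 4.52, 6.41 and 5.65 in EV + LPS, and 6.29, 5.67 and 7.34 in Vkine + LPS. Ifit3 was at 0.207 and 0.413 CPM in EV, 2.77, 2.6 and 2.69 in Vkine, 7.34, 9 and 9.46 in EV + LPS, and 7.41, 6.87 and 6.19 in Vkine + LPS. Both were lowest in EV, intermediate in Vkine and highest with LPS, and the LPS groups overlapped. With Vkine alone Ifit1 rose by a log2 fold change of 2.62 ± 0.51 (SE, adjusted p = 0.000836) and Ifit3 by 3.12 ± 0.32 (adjusted p = 2.57e-06). With LPS alone they rose by 5.0 ± 0.39 (adjusted p = 9.26e-08) and 4.79 ± 0.28 (adjusted p = 3.25e-09). Ifit2 was the most abundant of the family in MutuDC in CPM, at 4.61 and 6.6 in EV, 24, 22.9 and 27.5 in Vkine, 48.5, 52.4 and 51.7 in EV + LPS, and 58, 49.4 and 55.8 in Vkine + LPS. It rose by 2.15 ± 0.14 with Vkine (adjusted p = 1.67e-08) and by 3.19 ± 0.14 with LPS (adjusted p = 1.91e-10). Ifit3b had 2 counts in all in the EV samples, 39 in Vkine and 82 in EV + LPS. The ratio of its counts, scaled for depth, was 12.7 for Vkine against EV (95% counting interval 3.28 to 108) and 28.1 for EV + LPS against EV (7.52 to 236), and the interval covers counting error only. The added effect of Vkine in the presence of LPS was not called for any of the 4 Ifit genes, from -0.33 ± 0.14 in Ifit3 (adjusted p = 0.0697) to 0.22 ± 0.18 in Ifit1 (adjusted p = 0.347). Ifit3 was called lower there with upper-quartile factors (-0.38, adjusted p = 0.0383) and without EV + LPS replicate 1 (-0.43, adjusted p = 0.0328). Ifit3 and Ifit3b share 51.2% of the 50-base words of Ifit3's transcripts, so the split of reads between them is uncertain.

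Rsad2 (viperin, which makes a chain-terminating nucleotide) and its divergent neighbour Cmpk2 (a mitochondrial nucleotide kinase), 12.8 kb apart on chromosome 12, differed from the Ifit genes in MutuDC. Rsad2 was at 0 and 0.413 CPM in EV, 0.0504, 0 and 0 in Vkine, 0.662, 0.883 and 0.224 in EV + LPS, and 1.41, 1.03 and 1.04 in Vkine + LPS. Cmpk2 was at 0.155 and 0.059 CPM in EV, 0.0504, 0 and 0.0598 in Vkine, 0.497, 0.471 and 0.168 in EV + LPS, and 2.97, 1.83 and 1.42 in Vkine + LPS. Both were near 0 without LPS and highest in all 3 Vkine + LPS samples. Cmpk2 was the member with the largest Vkine effect under LPS (2.45 ± 0.44, adjusted p = 0.000345), while Rsad2 was not called there (0.98 ± 0.53, adjusted p = 0.148). From Vkine to Vkine + LPS the depth-scaled count ratio was 59.1 for Cmpk2 (119 against 2 counts, 95% counting interval 16 to 493) and 65.5 for Rsad2 (66 against 1 counts, lower bound 11.4). Neither was called with Vkine alone or LPS alone in the full set of samples. Which EV sample was left out decided Rsad2's calls, each against a single EV sample: without EV replicate 1 it was lower with Vkine (adjusted p = 0.0306), and without EV replicate 2 higher with LPS (adjusted p = 0.0213).

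The ISG15 genes encode the ubiquitin-like modifier Isg15, the ligases Herc6 and Trim25, and Usp18, which removes ISG15 from proteins and also dampens receptor signalling. Isg15 (ENSMUSG00000035692) was at 1.61 and 2 CPM in EV, 9.42, 8 and 9.32 in Vkine, 27, 22.7 and 33.2 in EV + LPS, and 38, 41.2 and 40.6 in Vkine + LPS. Usp18 was at 11.7 and 12.1 CPM in EV, 38.7, 37.3 and 35.6 in Vkine, 70.1, 57.7 and 65.6 in EV + LPS, and 102, 96.4 and 103 in Vkine + LPS. In both genes the 4 groups were separate and rose in that order. Vkine alone raised Isg15 by 2.31 ± 0.21 (adjusted p = 6.13e-07) and Usp18 by 1.65 ± 0.10 (adjusted p = 6.03e-09), and under LPS by 0.53 ± 0.11 (adjusted p = 0.0015) and 0.64 ± 0.08 (adjusted p = 7.75e-06). Herc6 was at 4.25 and 3.42 CPM in EV, 6.55, 6.55 and 6.51 in Vkine, 8, 8.88 and 10.5 in EV + LPS, and 8.44, 6.01 and 5.42 in Vkine + LPS. It rose with Vkine alone (0.76 ± 0.20, adjusted p = 0.0077) and with LPS alone (1.24 ± 0.20, adjusted p = 0.000162), and was lower with Vkine under LPS (-0.45 ± 0.16, adjusted p = 0.0322). That last call was lost without EV + LPS replicate 3 (adjusted p = 0.113), Vkine + LPS replicate 2 (0.12) or Vkine + LPS replicate 3 (0.152), and with the groups compared alone (0.0564), and the rise with Vkine alone was lost without EV replicate 2 (0.0875). Trim25 rose by 0.63 ± 0.08 with Vkine and by 1.24 ± 0.08 with LPS, and was at 0.03 ± 0.07 for Vkine under LPS.

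The OAS enzymes make 2-5A, which activates RNase L, while Eif2ak2 (PKR) halts translation on double-stranded RNA and Isg20 is an RNA exonuclease. Oas2 was at 0.415 and 0.707 CPM in EV, 3.53, 4.37 and 4.12 in Vkine, 10.9, 14.3 and 12.9 in EV + LPS, and 10.6, 8.81 and 10.7 in Vkine + LPS. Oas1a was at 0.829 and 0.648 CPM in EV, 4.69, 4.26 and 3.64 in Vkine, 8.16, 8.41 and 10.1 in EV + LPS, and 8.63, 10 and 10.2 in Vkine + LPS. Isg20 was at 0.881 and 1 CPM in EV, 3.53, 3.69 and 2.99 in Vkine, 6.01, 5.3 and 5.82 in EV + LPS, and 4.05, 4.69 and 3.62 in Vkine + LPS. All 3 rose with Vkine, with the Vkine samples between the EV and the EV + LPS samples. Vkine alone raised them by 2.84 ± 0.29, 2.49 ± 0.25 and 1.85 ± 0.24 (adjusted p = 1.77e-06, 1.57e-06 and 2.16e-05), and LPS alone by 4.50 ± 0.25, 3.57 ± 0.23 and 2.60 ± 0.23 (adjusted p = 1.97e-09, 1.04e-08 and 3.59e-07). Under LPS, Isg20 was lower with Vkine (-0.47 ± 0.15, adjusted p = 0.0216), a call lost without EV + LPS replicate 1 (0.0672), Vkine + LPS replicate 1 (0.0588) or Vkine + LPS replicate 3 (0.0948). Every Vkine + LPS sample of Oas2 was below every EV + LPS sample, which was not called (-0.33 ± 0.13, adjusted p = 0.0571) but was called with upper-quartile factors (0.0287), without the filter on low counts (0.0388), and without EV replicate 1 (0.0458), EV replicate 2 (0.0462) or EV + LPS replicate 1 (0.0276). Oas1a and Oas1g share 57.6% of the 50-base words of Oas1a's transcripts, so their split is uncertain too. Oas1g was not called with Vkine alone (1.34 ± 0.58, adjusted p = 0.0831) and rose by 2.88 ± 0.49 with LPS alone (adjusted p = 0.000313).

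Oasl1, an OAS-like protein without 2-5A synthesis that is known in mouse to hold back translation of Irf7, was the only member called lower with Vkine alone. It was at 172 and 167 CPM in EV, 101, 94.9 and 89.9 in Vkine, 203, 193 and 223 in EV + LPS, and 385, 421 and 414 in Vkine + LPS. The 4 groups did not overlap, with Vkine lowest and Vkine + LPS highest. Vkine lowered it by a log2 fold change of -0.83 ± 0.08 without LPS (adjusted p = 6.77e-07) and raised it by 0.98 ± 0.07 with LPS (adjusted p = 3.51e-08). The small rise with LPS alone (0.28 ± 0.08, adjusted p = 0.00955) was lost without EV replicate 1 (0.0508) or EV replicate 2 (0.0819), and when only the EV and EV + LPS samples were fitted (0.0506). Its neighbour Oasl2, 11 kb away on chromosome 5, rose with Vkine alone, from 9.17 and 9.61 CPM to 18.1, 19.4 and 18.8 (1.0 ± 0.11, adjusted p = 6.86e-06). Oasl2 was at 53.8, 59.8 and 53.4 CPM in EV + LPS and 43.7, 40.1 and 49.2 in Vkine + LPS, so that Vkine lowered it there (-0.33 ± 0.08, adjusted p = 0.00528). Eif2ak2 was at 55.3 and 56.2 CPM in EV, 86.9, 91.9 and 97.7 in Vkine, 168, 225 and 147 in EV + LPS, and 183, 168 and 178 in Vkine + LPS, and it rose with Vkine (0.72 ± 0.13) and with LPS (1.69 ± 0.14). Oas3 changed least of the OAS genes called higher with Vkine alone (0.28 ± 0.10, adjusted p = 0.03), and lost that call without EV replicate 1 (0.109), EV replicate 2 (0.149), Vkine replicate 1 (0.0702) or Vkine replicate 3 (0.0695).

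The nucleic acid sensors were MDA5 (Ifih1), RIG-I (Ddx58), LGP2 (Dhx58) and Zbp1, a sensor of Z-form nucleic acid that can trigger cell death. Ifih1 was at 5.13 and 6.31 CPM in EV, 21.5, 19.2 and 23.3 in Vkine, 42.4, 46.1 and 36.3 in EV + LPS, and 44.2, 38.9 and 40.5 in Vkine + LPS. Dhx58 was at 6.01 and 5.25 CPM in EV, 19.4, 18.7 and 19.1 in Vkine, 33.3, 37.1 and 38.6 in EV + LPS, and 36.8, 43.1 and 36.1 in Vkine + LPS. Zbp1 was at 1.3 and 1.12 CPM in EV, 5.24, 4.16 and 3.7 in Vkine, 8.94, 8.3 and 9.46 in EV + LPS, and 8.34, 8.98 and 7.67 in Vkine + LPS. In each the Vkine samples lay between EV and the LPS groups, and the LPS groups overlapped. Vkine alone raised them by 1.90 ± 0.14, 1.76 ± 0.13 and 1.85 ± 0.22 (adjusted p = 7.99e-08, 4.08e-08 and 1.08e-05), and LPS alone by 2.87 ± 0.14, 2.68 ± 0.12 and 2.87 ± 0.21. Ddx58 was at 1.09 and 1.3 CPM in EV, 1.36, 1.66 and 2.99 in Vkine, 6.34, 7.53 and 7.05 in EV + LPS, and 6.73, 5.55 and 6.52 in Vkine + LPS. It was not called with Vkine alone (0.73 ± 0.32, adjusted p = 0.0878, and 0.0279 without Vkine replicate 1) and rose by 2.55 ± 0.27 with LPS alone (adjusted p = 3.7e-06). None of the 4 sensors was called for Vkine under LPS, with log2 fold changes from -0.15 to 0.09.

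**Figure D2:**
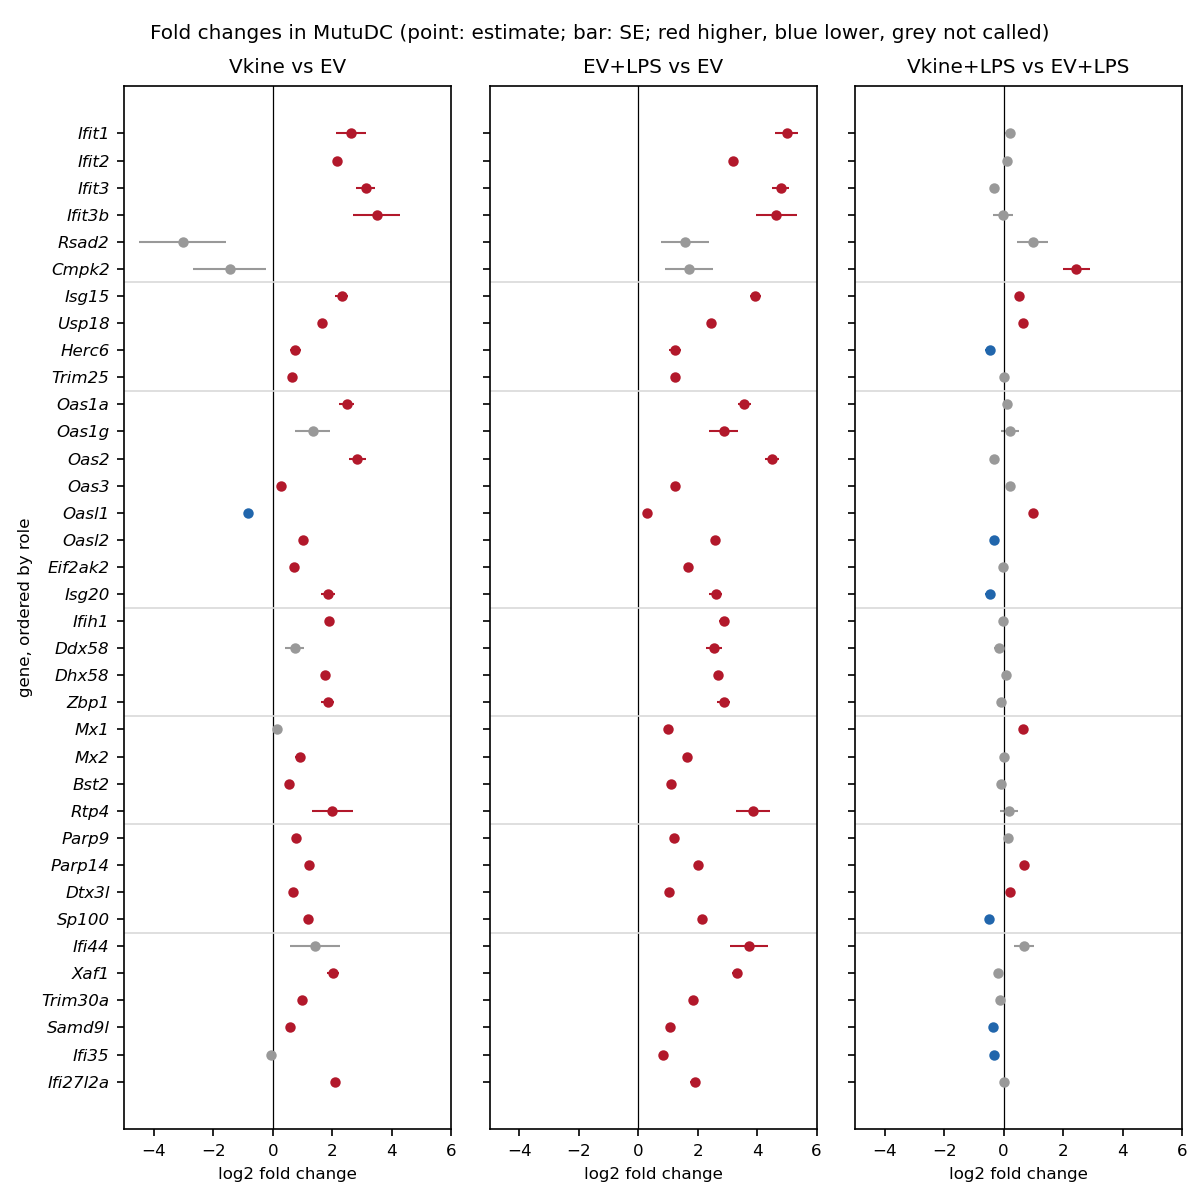
Log2 fold change of each effector gene (point) with its standard error (bar) in 3 MutuDC comparisons, with red for called higher, blue for called lower and grey for not called. The points lie mostly right of 0 for Vkine against EV (median 1.21) and EV + LPS against EV (median 2.29), and close to 0 on both sides for Vkine + LPS against EV + LPS (median 0.03).

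Mx1 and Mx2 are dynamin-like GTPases that trap viral components, Bst2 (tetherin) holds budding virions at the cell surface, and Rtp4 is an interferon-induced transporter protein. Mx1 was at 28.2 and 28.7 CPM in EV, 28.8, 31.7 and 33.5 in Vkine, 52.2, 59.4 and 57.8 in EV + LPS, and 87.3, 90.2 and 92.9 in Vkine + LPS. The Vkine samples were barely above the EV samples, whereas the Vkine + LPS samples were well above all EV + LPS samples. Vkine alone was not called (0.13 ± 0.09, adjusted p = 0.258), LPS alone raised Mx1 by 0.99 ± 0.09 (adjusted p = 4.87e-07), and Vkine under LPS raised it by 0.67 ± 0.07 (adjusted p = 3.93e-06). Mx2, annotated as a polymorphic pseudogene, was at 3.42 and 4.95 CPM in EV, 7.36, 8.16 and 8.07 in Vkine, 13.4, 12.2 and 13.5 in EV + LPS, and 13.3, 12.6 and 14 in Vkine + LPS. It rose with Vkine alone (0.92 ± 0.16, adjusted p = 0.000299), and Vkine under LPS was not called (0.03 ± 0.11). Bst2 was at 28.8 and 28.1 CPM in EV, 41.8, 43.1 and 39.6 in Vkine, 62.7, 49.7 and 69.4 in EV + LPS, and 54, 61.6 and 53.9 in Vkine + LPS. It rose by 0.54 ± 0.12 with Vkine (adjusted p = 0.00214) and 1.09 ± 0.12 with LPS (adjusted p = 4.41e-06). Rtp4, at 0 to 0.259 CPM in EV and 0.418 to 0.806 in Vkine, rose by 2.0 ± 0.69 with Vkine (adjusted p = 0.0334), a call lost without EV replicate 2 (0.235) or Vkine replicate 1 (0.112), and with the replicate block (0.0561). With LPS alone Rtp4 rose by 3.85 ± 0.57 (adjusted p = 8.53e-05). Rtp4 overlaps Masp1 by 525 bases on opposite strands, and the sources used here do not give the strand setting of the counting.

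Parp9 and Dtx3l form an ADP-ribosylating ubiquitin ligase, Parp14 is a related enzyme, and Sp100 is a component of nuclear bodies that restrict viral DNA. Parp14 was at 22.4 and 22.6 CPM in EV, 50.3, 54.6 and 53.5 in Vkine, 86.3, 105 and 83.5 in EV + LPS, and 152, 144 and 149 in Vkine + LPS. Sp100 was at 79.4 and 76.6 CPM in EV, 177, 171 and 186 in Vkine, 335, 340 and 353 in EV + LPS, and 240, 243 and 246 in Vkine + LPS. The 4 groups were separate in both genes, but Parp14 was highest in Vkine + LPS and Sp100 in EV + LPS. Vkine alone raised Parp14 by 1.23 ± 0.10 (adjusted p = 1.54e-07) and Sp100 by 1.19 ± 0.07 (adjusted p = 2.44e-09), close to each other. Under LPS, Vkine raised Parp14 by 0.70 ± 0.08 (adjusted p = 5.62e-06) and lowered Sp100 by a log2 fold change of -0.50 ± 0.06 (adjusted p = 6.2e-06). Parp9 was at 33.2 and 36.1 CPM in EV, 58.8, 59.1 and 59.2 in Vkine, 75.9, 79 and 82.7 in EV + LPS, and 85.4, 88.7 and 88.1 in Vkine + LPS. Dtx3l was at 30.4 and 30.8 CPM in EV, 47.3, 46.3 and 52.7 in Vkine, 58.4, 69.9 and 58.8 in EV + LPS, and 73.5, 70.7 and 71.3 in Vkine + LPS. Both rose with Vkine alone (0.77 ± 0.08 and 0.67 ± 0.09) and with LPS alone (1.19 ± 0.08 and 1.03 ± 0.09). For Vkine under LPS only Dtx3l was called (0.20 ± 0.08, adjusted p = 0.0473). That call was kept without Vkine replicate 3 or EV + LPS replicate 2, but leaving out any other MutuDC sample ended it, with an adjusted p from 0.0585 without Vkine replicate 1 to 0.181 without EV + LPS replicate 1. It was lost as well with RLE factors (0.0671), upper-quartile factors (0.133), no filter on low counts (0.114), DESeq2 (0.0757), the replicate block (0.0693) and the groups compared alone (0.134). Parp9 and Dtx3l overlap by 682 bases on opposite strands, and the strand setting of the counting is not given in the sources used here, so reads there cannot be assigned.

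The remaining effectors were Ifi44, Xaf1 (a pro-apoptotic factor), Trim30a, Samd9l (a translational inhibitor), Ifi35 and Ifi27l2a (a small hydrophobic protein). Ifi27l2a was at 12.1 and 10.3 CPM in EV, 47.3, 47 and 50 in Vkine, 45.3, 33.5 and 46.6 in EV + LPS, and 38.6, 48.2 and 41.6 in Vkine + LPS. The Vkine samples were all above the EV + LPS samples, which no other member showed. It rose by 2.10 ± 0.15 with Vkine (adjusted p = 2.78e-08) and 1.90 ± 0.15 with LPS (adjusted p = 9.24e-08), and LPS made no called difference once Vkine was present (-0.17 ± 0.11, adjusted p = 0.222). When only the Vkine and Vkine + LPS samples were fitted that difference was called lower (-0.19, adjusted p = 0.0358). Xaf1 was at 1.3 and 2.24 CPM in EV, 7, 7.43 and 6.87 in Vkine, 16.6, 16 and 19.8 in EV + LPS, and 15.3, 15.1 and 15.6 in Vkine + LPS. Trim30a, which in mouse restrains Toll-like receptor signalling, was at 95.3 and 99 CPM in EV, 183, 195 and 193 in Vkine, 358, 390 and 303 in EV + LPS, and 329, 308 and 320 in Vkine + LPS. Vkine alone raised Xaf1 by 2.02 ± 0.20 (adjusted p = 1.36e-06) and Trim30a by 0.97 ± 0.09 (adjusted p = 9.08e-07), and neither was called for Vkine under LPS. Ifi35 was at 42.4 and 42.7 CPM in EV, 41.1, 43 and 38.2 in Vkine, 78.7, 63.8 and 85.3 in EV + LPS, and 57.5, 64.4 and 59.1 in Vkine + LPS. The EV and Vkine samples of Ifi35 overlapped (-0.06 ± 0.11, adjusted p = 0.691), and under LPS Vkine lowered it (-0.33 ± 0.09, adjusted p = 0.00901). Samd9l rose with Vkine alone (0.57 ± 0.12, adjusted p = 0.00201, and 0.0514 without EV replicate 1) and was lower with Vkine under LPS (-0.34 ± 0.10, adjusted p = 0.0165). The latter call was lost without EV + LPS replicate 2 (0.051) or Vkine + LPS replicate 2 (0.0595). Ifi44 had 3 counts in all in EV and 13 in Vkine, a depth-scaled ratio of 2.81 whose 95% counting interval of 0.773 to 15.4 includes no change, and 63 in EV + LPS, a ratio of 14.4 (4.7 to 71.6).

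**Figure D3:**
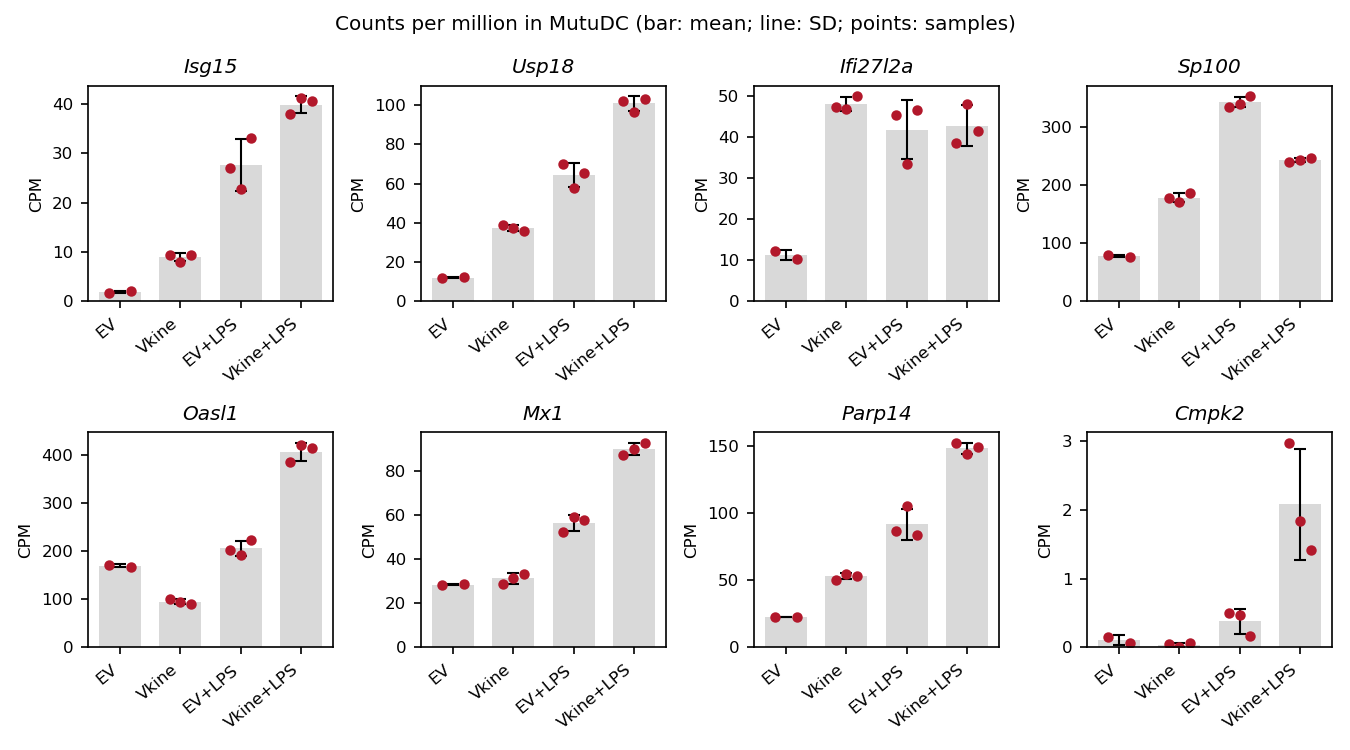
CPM of 8 effector genes in the MutuDC groups, with bars for means, lines for SD (n = 2 in EV and 3 in the others) and points for samples. Isg15, Usp18 and Parp14 rise through the 4 groups, Ifi27l2a is highest in Vkine, Sp100 is highest in EV + LPS, and Oasl1, Mx1 and Cmpk2 are highest in Vkine + LPS with Oasl1 lowest in Vkine.

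The interaction term tested whether the Vkine effect differed with and without LPS. It was lower with LPS in 26 of the 36 genes, higher in 4 and not called in 6, with a median of -1.11 (25.5% of all genes tested were called higher and 23.7% lower). The 4 genes whose log2 fold change with Vkine was higher with LPS were Oasl1 (1.81 ± 0.10, adjusted p = 2.15e-09), Mx1 (0.54 ± 0.11, adjusted p = 0.00106), Cmpk2 and Rsad2. In Oasl1 a fall without LPS turned into a rise with it. Cmpk2 and Rsad2 rest on few counts. Rsad2's call was lost without any 1 of the 3 Vkine + LPS samples, Vkine replicate 2 (adjusted p = 0.0967), Vkine replicate 3 (0.0926) or EV + LPS replicate 1 (0.0548), and with the replicate block (0.0611). Without EV replicate 2, which holds all 7 of the Rsad2 counts in EV, its value was -0.91 (0.711). Cmpk2's call was lost without EV replicate 1 (0.314) or Vkine replicate 2 (0.0609). Apart from Ifit3b, with its 2 counts in EV, the largest reductions were in Ifit3 (-3.45 ± 0.36, adjusted p = 1.33e-06), Oas2 (-3.17 ± 0.32, adjusted p = 9.43e-07) and Ifit1 (-2.40 ± 0.55, adjusted p = 0.00191). These too rest on few counts in the EV samples, 11 for Ifit3, 20 for Oas2 and 6 for Ifit1. In 19 genes Vkine alone and LPS alone were each called higher and Vkine under LPS was not called (2.34% of genes tested). For Vkine under LPS, at least 1 alternative fit called Ifit3, Oas2, Bst2 and Trim30a of these lower, and Oas3, Eif2ak2 and Parp9 higher. In 5 (Herc6, Oasl2, Isg20, Sp100 and Samd9l) Vkine alone and LPS alone were called higher and Vkine under LPS lower (4.9%). The lower calls of Herc6, Isg20 and Samd9l were lost under some alternatives as given above. In 4 (Isg15, Usp18, Parp14 and Dtx3l) all 3 were called higher (1.11%), with Dtx3l's last call lost under most alternatives as given above.

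**Figure D4:**
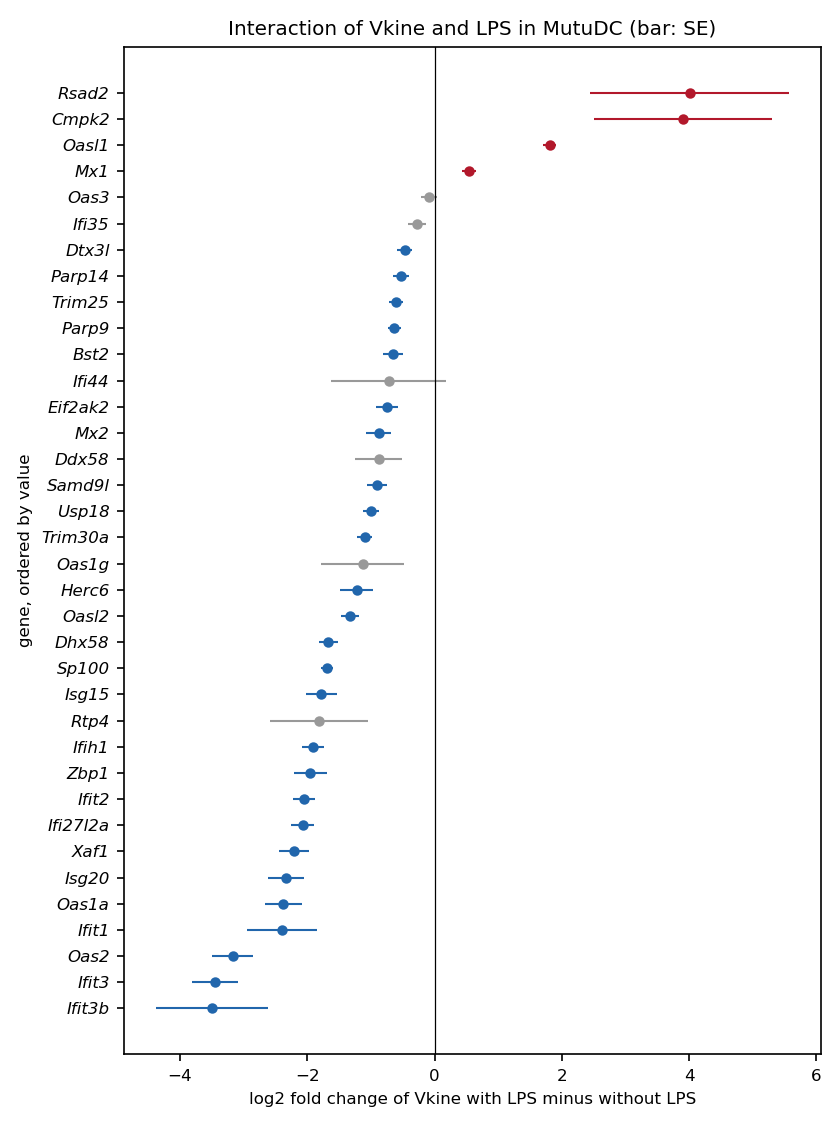
Interaction of Vkine and LPS for each effector gene, as the log2 fold change of Vkine with LPS minus that without LPS (point) and its standard error (bar), ordered by value, with red for called above 0, blue for called below 0 and grey for not called. Of the 36 genes 26 are called below 0 and 4 above, Rsad2 and Cmpk2 with wide bars.

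The other genes of the pathway were read from 5 lists of ligands, receptor and kinases, transcription factors, sensing genes and adaptors, and negative regulators. No ligand gene of 18 passed the filter on low counts in MutuDC. Ifnb1, the interferon beta gene, had 0 and 0 counts in EV, 0, 4 and 2 in Vkine, 4, 0 and 0 in EV + LPS, and 0, 2 and 4 in Vkine + LPS. The 13 interferon alpha genes were at 0 in all 17 samples of both cell sets, and a count of 0 allows up to 3 counts in a sample. Of the receptor and kinase genes with Vkine alone, Ifnar1 rose slightly (0.24 ± 0.07, adjusted p = 0.019), as did Jak1 (0.21 ± 0.07, adjusted p = 0.0295), and Ifnar2 fell (-0.32 ± 0.09, adjusted p = 0.00852). With LPS alone Ifnar2 was called lower too (-0.39 ± 0.09, adjusted p = 0.00235), and Ifnar1 was not called (-0.03 ± 0.07).

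Transcription factors of the pathway moved in both directions with Vkine alone. Stat2 was at 57.7 and 51.8 CPM in EV, 88.6, 91.2 and 93.2 in Vkine, 120, 119 and 118 in EV + LPS, and 93, 97.6 and 91.5 in Vkine + LPS. It rose by 0.73 ± 0.07 with Vkine (adjusted p = 1.57e-06) and 1.12 ± 0.07 with LPS (adjusted p = 1.36e-08). Irf9 rose by 0.96 ± 0.08 and 1.83 ± 0.08, and Irf7 by 2.37 ± 0.41 and 3.25 ± 0.38 in the same comparisons. For Vkine under LPS, Stat2 fell (-0.34 ± 0.06, adjusted p = 0.000438), and Irf9 (-0.08) and Irf7 (-0.11) were not called. The interaction was negative for these 3 genes, from -1.04 ± 0.10 in Irf9 to -2.48 ± 0.48 in Irf7. Falls with Vkine alone were seen in Irf1 (-1.17 ± 0.08, adjusted p = 3.31e-08), Irf5 (-0.89 ± 0.07, adjusted p = 4.56e-08), Irf8 (-0.47 ± 0.06) and Irf3 (-0.35 ± 0.09). Irf1 was at 105 and 102 CPM in EV, 49.8, 45.7 and 41.7 in Vkine, 88.8, 77.8 and 86.5 in EV + LPS, and 104, 110 and 105 in Vkine + LPS, which like Oasl1 put the Vkine group lowest.

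Of 17 sensing and adaptor genes, 15 were tested, and with Vkine alone 2 rose and 1 fell (16.9% higher and 18.3% lower among all genes). The kinase gene Ikbke had at most 1 count in EV (0.0518 and 0 CPM) and was at 0.605, 0.364 and 0.418 CPM in Vkine, 1.66, 1.47 and 1.74 in EV + LPS, and 9.36, 9.04 and 9.97 in Vkine + LPS. Ticam1 (TRIF), the adaptor from Toll-like receptors 3 and 4 to interferon induction, fell with Vkine alone (-0.46 ± 0.09, adjusted p = 0.00131) and with LPS alone (-0.36 ± 0.09, adjusted p = 0.00735). Of 9 negative regulators, 6 rose and 2 fell with Vkine alone, beside the same 16.9% and 18.3%. Tnfaip3 (A20), an inhibitor of NF-kB signalling, rose from 5.65 and 6.31 CPM in EV to 19.6, 20.3 and 18.4 in Vkine (1.70 ± 0.14, adjusted p = 1.53e-07) and was at 23.6, 30.2 and 22.6 in EV + LPS and 49.3, 50.5 and 50.6 in Vkine + LPS. Socs1, an inhibitor of JAK kinases, fell with Vkine alone (-0.57 ± 0.17, adjusted p = 0.0145). With Vkine under LPS it rose (0.44 ± 0.14, adjusted p = 0.0196).

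In tumor CD45 cells, most effector genes were at higher levels in the Vkine samples, but none was called. By edgeR's quasi-likelihood test 0 of 36 passed an adjusted p of 0.05, against 0.0286% of 14006 genes tested in either direction. At an unadjusted p under 0.05, 26 were higher and 0 lower (7.02% of genes tested were higher and 12% were in either direction in that way). In 26 of 36 every Vkine sample was above every EV sample (9.21% of genes tested). The log2 fold change was positive in 35 of 36 (49.7% of genes tested), with a median of 0.72 against 0 over all genes. The fit without a filter on low counts called 18 of the 36 higher (1.66% of 25036 genes), and DESeq2 called 7 higher (1.44% of 12917 genes), which were Rsad2, Herc6, Oasl1, Isg20, Zbp1, Rtp4 and Ifi27l2a. Without EV replicate 2 the median was 0.47.

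The mean log2 CPM of the 36 genes was 5.38, 4.78 and 5.63 in EV and 6.06, 5.96 and 6 in Vkine. The Vkine samples were close together and the EV samples ranged widely, with EV replicate 3 nearest to Vkine. In the IFIT group 6 of 6 genes did not overlap between groups, to be read, like the counts by role and of markers that follow, beside the 9.21% of all genes tested. Rsad2 was at 117, 48.8 and 114 CPM in EV and 174, 222 and 241 in Vkine (1.19 ± 0.31, adjusted p = 0.275). Ifit3 was at 34.3, 32.6 and 61 CPM in EV and 98, 66.8 and 62.6 in Vkine (0.83 ± 0.27, adjusted p = 0.312), and Cmpk2 at 30.7, 23.3 and 43.7 in EV and 47.5, 51.3 and 55.3 in Vkine (0.66 ± 0.21, adjusted p = 0.312). Unlike in MutuDC, Rsad2 was among the more abundant members here. In the ISG15 group, Herc6 was at 17.2, 10.7 and 13.7 CPM in EV and 31.6, 26.1 and 24.7 in Vkine (0.98 ± 0.22, adjusted p = 0.237). Usp18 was at 24.9, 18.6 and 41.2 CPM in EV and 44.7, 43.8 and 47.3 in Vkine (0.68 ± 0.25, adjusted p = 0.352), and Isg15 at 81.6, 58.1 and 143 in EV and 153, 165 and 154 in Vkine (0.74 ± 0.28, adjusted p = 0.361). EV replicate 3 was close below the Vkine samples in both. Trim25 overlapped between the groups (0.09 ± 0.15, adjusted p = 0.857).

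**Figure D5:**
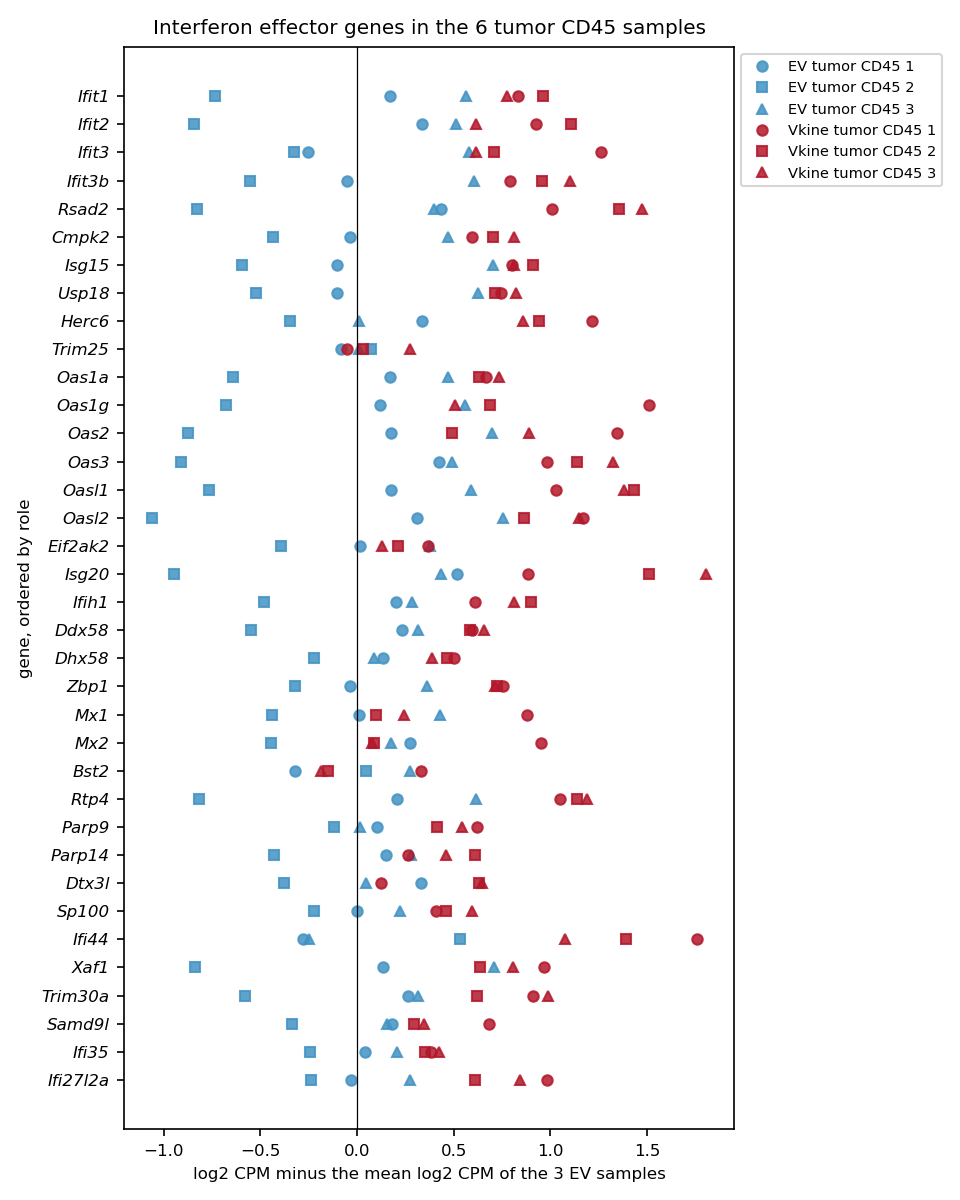
Log2 CPM of each effector gene in the 6 tumor CD45 samples, minus the mean log2 CPM of the 3 EV samples, with blue for EV, red for Vkine and marker shape for the replicate. The red markers lie right of all blue markers in 26 of 36 genes, and EV replicate 2 (blue squares) is lowest in 33.

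Among the OAS genes and nucleases, Oasl1 was at 43.1, 22.4 and 57.4 CPM in EV and 77.8, 103 and 99.2 in Vkine (1.19 ± 0.30, adjusted p = 0.275), the opposite side of 0 from its change in resting MutuDC. Isg20 was at 17.9, 6.5 and 16.9 CPM in EV and 23.1, 35.7 and 43.8 in Vkine (1.31 ± 0.38, adjusted p = 0.291), and Oas3 at 48.8, 19.3 and 51 in EV and 71.9, 79.9 and 91 in Vkine (1.03 ± 0.33, adjusted p = 0.321). These 3 did not overlap between groups, nor did 2 others of the 8. The 4 sensors did not overlap either. Zbp1 was at 45, 37 and 59.4 CPM in EV and 78.1, 76.3 and 75.7 in Vkine (0.70 ± 0.18, adjusted p = 0.26), Ifih1 at 38.7, 24.1 and 41 in EV and 51.5, 62.9 and 59.1 in Vkine (0.74 ± 0.20, adjusted p = 0.275), and Dhx58 differed by 0.44 ± 0.15 (adjusted p = 0.335). Among the Mx and membrane factors only Rtp4 did not overlap, at 36.7, 18 and 48.6 CPM in EV and 65.8, 69.8 and 72.6 in Vkine (1.01 ± 0.30, adjusted p = 0.292). Bst2 was the member on the other side of 0, at 140, 181 and 212 CPM in EV and 220, 158 and 154 in Vkine (-0.01 ± 0.20, adjusted p = 0.996), and it was at 0.07 to 0.22 in 4 of the alternative fits. Mx1 (0.40 ± 0.26) and Mx2 (0.40 ± 0.29) overlapped between groups.

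Parp9 was at 33.8, 28.9 and 31.8 CPM in EV and 48.3, 41.8 and 45.8 in Vkine (0.52 ± 0.15, adjusted p = 0.275), and Sp100 at 104, 89.1 and 121 in EV and 138, 143 and 157 in Vkine (0.48 ± 0.15, adjusted p = 0.305). These did not overlap between groups, whereas Parp14 (0.42 ± 0.20) and Dtx3l (0.46 ± 0.23) did. Ifi27l2a had the smallest unadjusted p of the 36, at 64.8, 56.2 and 80 CPM in EV and 131, 101 and 119 in Vkine (0.81 ± 0.17, adjusted p = 0.237). Trim30a was at 131, 73.2 and 136 CPM in EV and 205, 168 and 217 in Vkine (0.80 ± 0.23, adjusted p = 0.284), and Ifi44, the least abundant member, at 1.42, 2.49 and 1.45 in EV and 5.84, 4.52 and 3.64 in Vkine (1.38 ± 0.43, adjusted p = 0.297). Both were separate between the groups, as were Samd9l and Ifi35, while Xaf1 overlapped.

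Upstream of the effectors in tumor CD45, Ifnb1 had 43, 13 and 29 counts in EV and 194, 100 and 176 in Vkine. All Vkine samples were above all EV samples (2.69 ± 0.49, adjusted p = 0.18). Irf7 was at 110, 90.8 and 137 CPM in EV and 233, 208 and 193 in Vkine (0.91 ± 0.18, adjusted p = 0.204). Stat2 (0.42 ± 0.19, adjusted p = 0.419), Irf9 (0.30 ± 0.13, adjusted p = 0.413) and Ifnar1 (0.04 ± 0.14, adjusted p = 0.927) were not called, nor was any other pathway gene reported here. In the same samples the summed neutrophil, T cell and conventional dendritic cell markers were higher in Vkine and did not overlap between the groups. Macrophage, plasmacytoid dendritic cell and monocyte sums overlapped, with monocyte markers at 3640 to 5230 CPM in EV and 3450 to 4950 in Vkine. Neutrophil markers summed to 454 to 2140 CPM in EV and 3630 to 5660 in Vkine, with 10 of 11 tested markers not overlapping, and T cell markers to 40.3 to 65.9 and 99.4 to 117. Conventional dendritic cell markers summed to 783 to 1430 CPM in EV and 1560 to 2150 in Vkine, macrophage markers to 11000 to 13600 and 8300 to 11800, and plasmacytoid dendritic cell markers other than Bst2 to 106 to 136 and 93.5 to 134. The part of these cells in the effector gene levels was not tested.

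Levels can be compared between genes only per transcript length, for which the authors' deposited FPKM values (fragments scaled for transcript length and library size) were used, and the tables of the cell sets were scaled separately. In EV MutuDC the highest effector was Oasl1 with a mean of 141 FPKM, followed by Trim30a with 62.1 and Sp100 with 53, and the median of the 36 was 2.43 FPKM. The medians were 11.9 FPKM in Vkine, 19.2 in EV + LPS and 18.2 in Vkine + LPS, where Oasl1 reached 328 FPKM. Of the 36, 12 were below 1 FPKM in EV, 7 in Vkine, 5 in EV + LPS and 4 in Vkine + LPS. In tumor CD45 the median was 12 FPKM in EV and 18.6 in Vkine. The highest there were Bst2 with 194 FPKM, Ifi27l2a with 142 and Isg15 with 123 in EV, against 194, 251 and 206 in Vkine, and Ifi44 was the 1 gene below 1 FPKM in either group.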

How the data were processed

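Per the submitters' processing notes, the tools were STAR, fastp, DESeq2 1.20.0 and featureCounts 1.5.0-p3 and the mouse build was GRCm38, and libraries were made with a NEBNext Ultra RNA kit, per the labels' protocols. The authors deposited raw read counts per gene and FPKM values in tables of the tumor CD45 and MutuDC samples. Counts were tested here with edgeR 4.0.16 in R 4.3.3: filterByExpr, TMM factors, robust quasi-likelihood fit and test, and Benjamini-Hochberg adjustment over all genes tested in a comparison. The 6 tumor CD45 samples and the 11 MutuDC samples were fitted apart. CPM values use the TMM-scaled library sizes, and ± after a log2 fold change is its standard error. Alternatives were RLE and upper-quartile factors, other filters on low counts, DESeq2 1.42.0, no robust estimation, a block for the replicate number, the groups compared alone and leaving out each sample. The fit was checked on simulated data. Total counts of 13814620 to 21263321 per sample set the precision, and intervals of count ratios cover counting error only. The members, lists and tests were chosen with earlier results of these data known. In each comparison up to 3 called members per role with the largest fold change were named, or in tumor CD45 the 3 with the smallest p, beside members that went against most of the list; the rest are given by counts. Promoter windows came from RefSeq (GRCm38.p6). Shared 50-base words were counted between annotated transcripts. Figures were drawn with matplotlib 3.10.9. A pathway gene is not reported here.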

Additional observations from a re-analysis of the deposited data

Results flagged for a closer look

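By the edgeR quasi-likelihood interaction test, which asks whether the log2 fold change of Vkine in MutuDC differed with and without LPS, 30 of the 36 effector genes passed an adjusted p of 0.05 (49.2% of all genes tested). The log2 fold change was higher with LPS in Rsad2 (4.01), Cmpk2 (3.90), Oasl1 (1.81), Mx1 (0.54). In Oasl1 this was a turn from a fall to a rise. In Herc6, Oasl2, Isg20, Sp100 and Samd9l, among the negative values below, a rise turned into a fall. For Herc6, Isg20 and Samd9l the call of that fall was lost under some alternatives. The log2 fold change was lower with LPS in the IFIT group: Ifit1 (-2.40), Ifit2 (-2.05), Ifit3 (-3.45), Ifit3b (-3.50). Lower values with LPS were also found in the ISG15 genes: Isg15 (-1.78), Usp18 (-1.0), Herc6 (-1.22), Trim25 (-0.60). The same sign was found in the OAS genes, PKR and Isg20: Oas1a (-2.38), Oas2 (-3.17), Oasl2 (-1.33), Eif2ak2 (-0.75), Isg20 (-2.33). A negative value was found in the sensors: Ifih1 (-1.91), Dhx58 (-1.67), Zbp1 (-1.95). Negative values were found in the Mx and membrane factors: Mx2 (-0.88), Bst2 (-0.65). The sign was negative in the PARP genes, Dtx3l and Sp100: Parp9 (-0.63), Parp14 (-0.53), Dtx3l (-0.47), Sp100 (-1.69). Values below 0 were found in the remaining effectors: Xaf1 (-2.21), Trim30a (-1.10), Samd9l (-0.90), Ifi27l2a (-2.07). The values of Rsad2 and Cmpk2 are fitted from groups with almost no counts and have no reliable size. Those of Ifit3b, Ifit1, Ifit3 and Oas2 rest on 2, 6, 11 and 20 counts in the EV samples.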

How the results depend on the processing

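Which tumor CD45 calls were made depended on the test: 0 of the 36 effector genes were called, but 18 without the filter on low counts and 7 with DESeq2; the cause was not tested. Leaving out 1 sample in turn called 0 each time there, with a median log2 fold change of 0.47 to 0.95. In MutuDC the counts of calls stayed within 1.5 times of 29, 34, 32, 13 and 30 under every alternative run. Leaving out 1 sample, they ran from 27 to 29 for Vkine against EV, 33 to 34 for EV + LPS against EV, 31 to 33 for Vkine + LPS against Vkine, 10 to 15 for Vkine + LPS against EV + LPS and 28 to 32 for the interaction. The medians ran from 1.10 to 1.23, 2.26 to 2.53, 1.09 to 1.15, 0.01 to 0.11 and -1.19 to -1.05. The EV + LPS median was 2.44 with a minimum of 1 CPM and 2.44 with the groups compared alone, where 35 of the 36 genes were tested. With upper-quartile factors the medians were 1.09 for Vkine + LPS against Vkine, -0.02 for Vkine + LPS against EV + LPS, where the sign turned, and -1.2 for the interaction. Signs of single genes near 0 turned. In tumor CD45, Bst2 was at 0 with RLE factors and with DESeq2, 0.22 with the replicate block and -0.20 to 0.14 with a sample left out, and Trim25 at -0.01 with the block and -0.01 to 0.15. With upper-quartile factors Herc6 was at -0.02 for Vkine + LPS against Vkine, and Trim25 (-0.03), Mx2 (-0.02) and Ifi27l2a (-0.02) turned for Vkine + LPS against EV + LPS. With a sample left out, Herc6 ran from -0.19 to 0.15 in the former, and in the latter Trim25 from -0.01 to 0.11, Ifih1 from -0.10 to 0.07, Eif2ak2 from -0.15 to 0.16, Mx2 from -0.01 to 0.07, Ifi27l2a from -0.11 to 0.11, Ifit3b from -0.26 to 0.33 and Bst2 from -0.23 to 0.01. Rsad2 ran from -4.87 to 1.87 for Vkine against EV, and in the interaction Ifi44 ran from -4.49 to 0.28, Rsad2 from -0.91 to 5.86 and Oas3 from -0.18 to 0.02.

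Same-numbered samples did not deviate together (correlations of -0.1 to 0.1, against -0.14 to 0.17 for samples of different number). With 2 or 3 samples per group this cannot exclude a pairing, and the labels state none. With the replicate block 0 members were called in tumor CD45, but that fit called 0 of all 14006 genes there. It put replicate 3 of each tumor CD45 group in a block alone, so that 0 says nothing about the members. In MutuDC the block called 28, 34 and 32 members in the first 3 comparisons, 12 for Vkine + LPS against EV + LPS and 29 for the interaction. Genes with under about 1 CPM are limited by depth. In EV MutuDC they include Rsad2, Cmpk2, Ifit1, Ifit3, Ifit3b, Ifi44, Rtp4, Oas1a, Oas1g, Oas2 and Isg20.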
